A study of Homo sapiens with 12 samples.

Results

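The epidermal growth factor (EGF) receptor family and its ligands were followed in IMR-90 cells, a line of human lung fibroblasts that stops dividing after a finite number of doublings. Members were the probe sets of the array that name 1 listed gene and no other, under its current or an older symbol, and their mean per gene. Of 9 listed genes, 8 were measured, by 34 probe sets of the 54675 on the array; AREG was not analysed here. The genes were the receptors EGFR (9 probe sets), ERBB2 (3) and ERBB3 (5) and the ligands EREG (2), HBEGF (4), TGFA (3), BTC (2) and NRG1 (6), out of 19775 genes tested. RNA was hybridised to 12 Affymetrix arrays, 3 for each of 4 groups. The old cells, nonsenescent and kept at 3% oxygen, had reached population doubling 53. The senescent cells, kept at 20% oxygen, had reached population doubling 48. The young cells were taken at population doubling 30, from 3% oxygen in a group and from 20% oxygen in the other. All groups were of the same line, with no treatment other than oxygen, and grown in medium with serum. The 2 oxygen levels used separate incubators, and oxygen and incubator cannot be told apart. The labels call the 3 arrays of a group biological replicates and do not describe separate cultures, so the p-values measure the spread between these arrays, which limits the precision.

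Receptors of this family are tyrosine kinases at the cell surface that pair when a ligand binds and pass the signal on through the RAS and ERK kinases and through PI3 kinase. EGFR binds EGF, transforming growth factor alpha (TGFA), amphiregulin (AREG), epiregulin (EREG), betacellulin (BTC) and heparin-binding EGF-like growth factor (HBEGF). ERBB2 has no known ligand of its own and serves as a partner of the others, while ERBB3 binds neuregulins such as NRG1 and has an impaired kinase. The ligands are made as membrane precursors and are released by surface proteases, and fibroblasts both make them and respond to them.

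The values are on a log2 scale on which 0 is the median that a probe set has among all 12 arrays. It can be set against the same probe set on another array, but gives no absolute level, so neither the order of levels between genes nor whether a receptor is expressed can be read. For the same reason the labelled cell type could not be checked by the level of its markers. A difference between groups is given as a log2 change with its standard error, from 1 limma fit of the 4 group means with n = 3 arrays each, and is called at an adjusted p under 0.05 over all genes. Comparisons that hold the same group share its arrays and are not independent of each other.

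HBEGF was high in young cells at 20% oxygen and low in every other group. EREG was lowest in young cells at 3% oxygen, and its gene mean was called only in comparisons with that group. NRG1 was called only between senescent cells at 20% and young cells at 3%, a call that was lost under 10 of 21 alternatives, and the 3 receptors, TGFA and BTC were called in none of the 6 pairwise comparisons. The range between the highest and lowest group mean was 1.59 for HBEGF, 0.76 for EREG and 0.40 for NRG1, on the log2 scale. Among all genes the median of this range was 0.29, and 1.76% of genes exceeded HBEGF, 9.15% EREG and 32% NRG1.

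**Figure D1:**
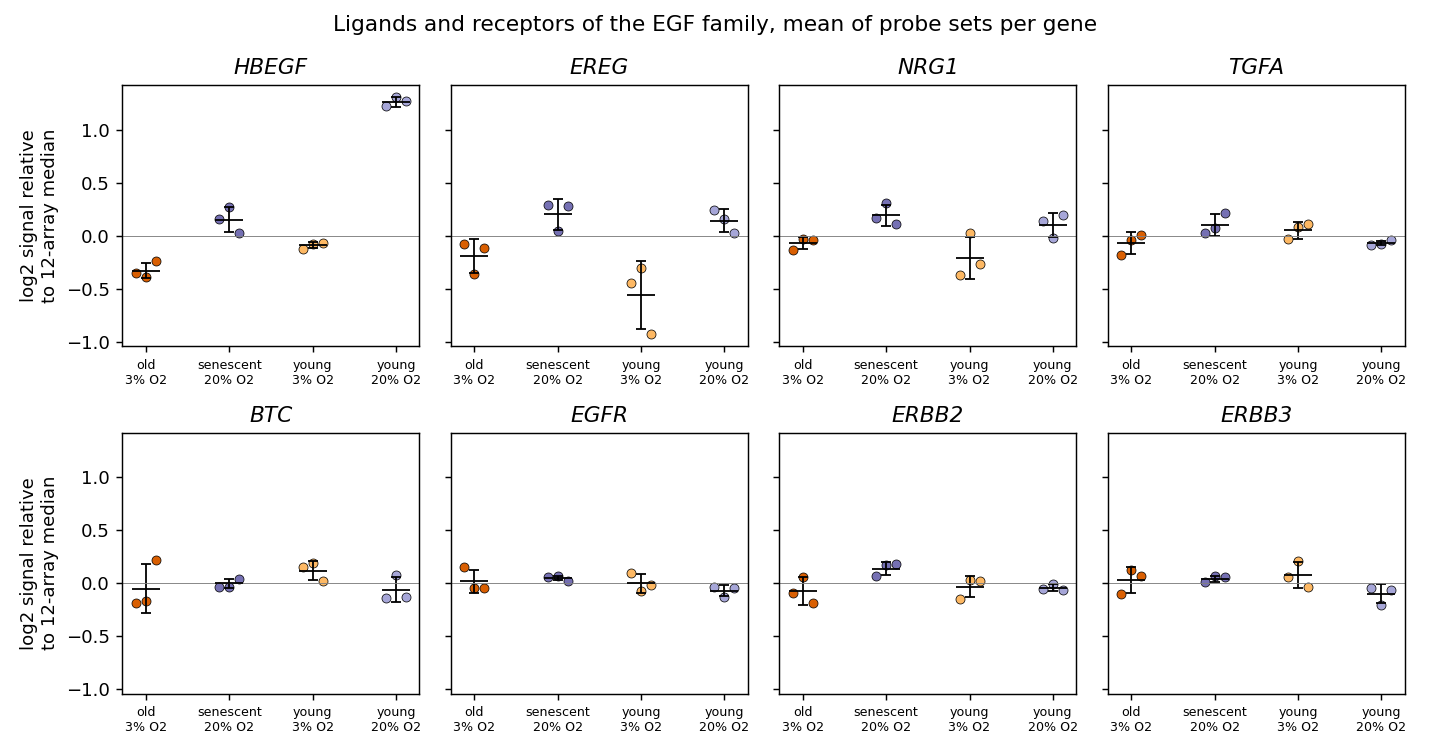
Log2 signal relative to the median of the 12 arrays (vertical axis) of the 8 measured genes in the 4 groups (horizontal axis); points are arrays, horizontal bars group means and whiskers SD (n = 3). HBEGF lies between 1.22 and 1.31 in young cells at 20% oxygen and at or below 0.27 on all other arrays, while the receptors stay within -0.20 to 0.21.

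The 2 ligands with the widest spread are shown by their promoters, 250 bases before to 50 bases after the annotated start of the gene (RefSeq, GRCh38.p14), with motif matches in capitals. HBEGF lies on the minus strand at chr5:140346554-140346853, and EREG on the plus strand at chr4:74364895-74365194.
HBEGF: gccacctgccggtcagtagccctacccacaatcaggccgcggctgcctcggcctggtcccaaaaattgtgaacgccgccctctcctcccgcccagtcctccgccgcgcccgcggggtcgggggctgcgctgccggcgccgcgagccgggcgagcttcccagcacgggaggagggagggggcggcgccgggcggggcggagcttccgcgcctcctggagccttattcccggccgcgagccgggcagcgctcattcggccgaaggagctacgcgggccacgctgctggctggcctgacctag
EREG: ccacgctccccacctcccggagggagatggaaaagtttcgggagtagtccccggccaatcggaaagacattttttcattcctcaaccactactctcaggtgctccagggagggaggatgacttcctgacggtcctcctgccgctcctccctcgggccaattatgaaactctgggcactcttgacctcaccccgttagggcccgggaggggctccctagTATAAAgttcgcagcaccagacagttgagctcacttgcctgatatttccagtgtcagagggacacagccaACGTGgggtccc

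Motifs were searched on both strands: TGANTCA, the site of AP-1 factors such as FOS; ACGTG, the core of the element that hypoxia-inducible factors bind; TGACGTCA, the cyclic AMP response element; and TATAAA, the TATA box. The EREG window held 1 TATA box, which begins 32 bases before the start site, and 1 ACGTG core, which begins 38 bases after it. The HBEGF window held none of the 4 motifs. Of 35116 promoters of this length, 7.71% held TGANTCA, 21.4% ACGTG, 1.85% TGACGTCA and 11.5% TATAAA. On chromosome 4, AREG is the only annotated protein-coding gene between EREG and BTC, and these neighbours of AREG had different patterns, as given below.

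HBEGF, a ligand of EGFR and ERBB4 that is anchored to heparan sulphate at the cell surface, was the member with the widest differences. In old cells at 3% oxygen its values were -0.35, -0.39 and -0.24, in senescent cells at 20% oxygen 0.16, 0.27 and 0.02, in young cells at 3% oxygen -0.13, -0.08 and -0.07, and in young cells at 20% oxygen 1.22, 1.31 and 1.27. No 2 groups overlapped. The order of group means was young cells at 20%, senescent cells at 20%, young cells at 3% and old cells at 3%. Of the neighbours in this order, only young and senescent cells at 20% oxygen differed by the test.

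In senescent cells at 20% oxygen HBEGF averaged 0.15 ± 0.12, against 1.26 ± 0.05 in young cells at 20% (SD, n = 3 each), a log2 change of -1.11 ± 0.09 (SE, limma adjusted p = 4.74e-06) and 2.16-fold lower. Young cells at 3% oxygen averaged -0.09 ± 0.03 (SD, n = 3), a change of -1.36 ± 0.09 (SE) from young cells at 20% and 2.56-fold lower (limma adjusted p = 5.75e-07). Old cells at 3% averaged -0.33 ± 0.07 (SD, n = 3), which was 3.01-fold lower than in young cells at 20% (limma adjusted p = 9.57e-08) and 1.39-fold lower than in senescent cells (limma adjusted p = 0.00322). Old and young cells at 3% differed by -0.23 ± 0.09 (SE, limma adjusted p = 0.28), and senescent cells at 20% and young cells at 3% by 0.24 ± 0.09 (SE, limma adjusted p = 0.113); neither was called.

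The passage change of HBEGF differed between the oxygen levels. Its fall with passage was larger at 20% than at 3% oxygen, where the change was not called (limma adjusted p = 0.28). The difference of the 2 changes was -0.88 ± 0.13 on the log2 scale (SE, limma adjusted p = 0.00102). The cells set against young cells were senescent at 20%, but nonsenescent and at a higher population doubling at 3%. The parts of oxygen, senescence and population doubling in this result were therefore not tested separately. Of the 8 members HBEGF was the only 1 with a called difference of this kind (12.5%), against 6.44% of all genes. TGFA had 0.29 ± 0.13 (SE, limma adjusted p = 0.241).

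Its 4 probe sets fell into 2 kinds. Probe set 203821_at stood at -0.96, -1.36 and -0.20 in old cells at 3%, at 0.34, 0.05 and 0.16 in senescent cells at 20%, at -0.05, -0.07 and -0.19 in young cells at 3%, and at 2.63, 2.77 and 2.44 in young cells at 20%. Probe set 38037_at stood at -0.83, -0.62 and -0.56 in old cells, at 0.16, 0.12 and 0.21 in senescent cells, at -0.17, -0.12 and -0.28 in young cells at 3%, and at 2.23, 2.45 and 2.02 in young cells at 20%. On both, the young cells at 20% were above all other arrays. Probe sets 222076_at and 244857_at did not pass in any comparison. In young cells at 20% probe set 222076_at stood at 0.00, 0.00 and 0.48, of which the last was above the 9 other arrays (-0.14 to 0.35), and 244857_at at -0.01, 0.00 and 0.14, within the range of the others (-0.26 to 0.55).

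The gene mean therefore gives a smaller change than the probe sets that moved. In senescent against young cells at 20% oxygen, 203821_at was 5.39-fold lower (limma adjusted p = 2.57e-05 over all probe sets) and 38037_at 4.2-fold lower (limma adjusted p = 8.06e-07). In young cells at 3% against 20% they were 6.6-fold and 5.37-fold lower, and in old cells at 3% against young cells at 20% 11-fold and 7.51-fold lower. The difference between the passage changes was -1.70 ± 0.32 on 203821_at and -1.59 ± 0.18 on 38037_at (SE, limma adjusted p = 0.00833 and 2.06e-04).

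**Figure D2:**
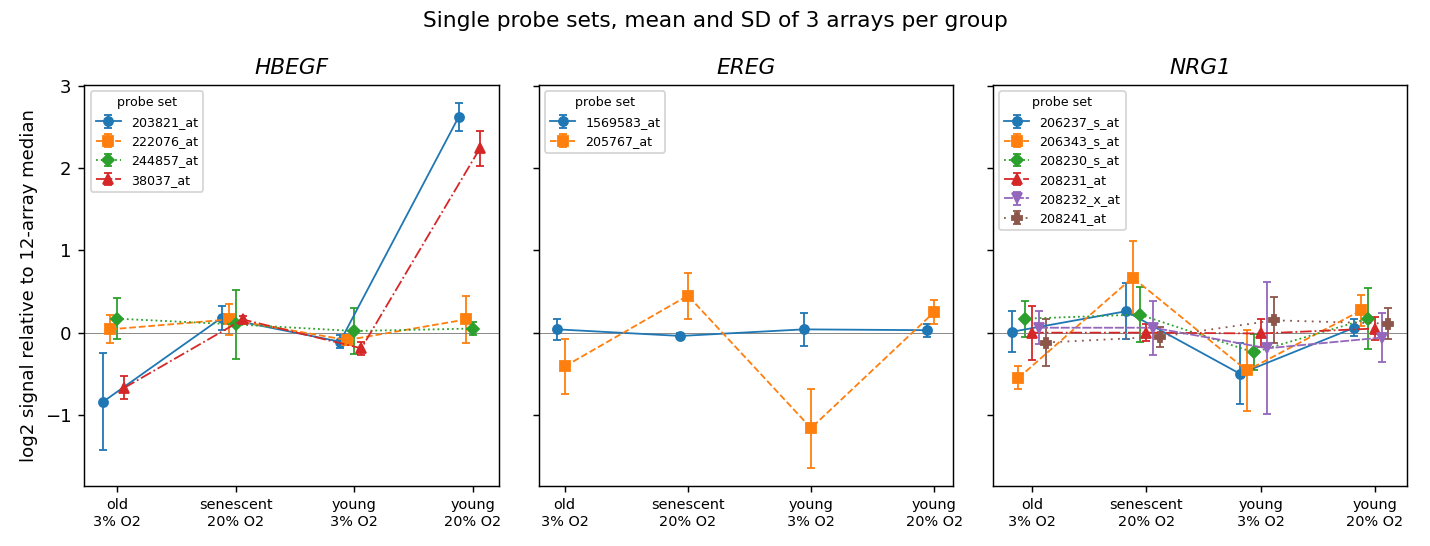
Group means of every probe set of HBEGF, EREG and NRG1 (vertical axis, log2 signal relative to the median of the 12 arrays) in the 4 groups (horizontal axis), with whiskers for SD (n = 3); lines only join the means of 1 probe set. For HBEGF 2 of 4 probe sets, for EREG 1 of 2 and for NRG1 2 of 6 passed the test in a comparison. The group means of the others lie between -0.24 and 0.22, with an SD of up to 0.8.

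EREG, a ligand of EGFR and ERBB4, was called as a gene mean only in comparisons with young cells at 3% oxygen. Its values in old cells at 3% oxygen were -0.08, -0.36 and -0.12, in senescent cells at 20% 0.29, 0.04 and 0.28, in young cells at 3% -0.45, -0.31 and -0.93, and in young cells at 20% 0.24, 0.16 and 0.02. All 6 arrays at 3% oxygen were below all 6 at 20%, and old and young cells at 3% overlapped, as did senescent and young cells at 20%. The share of all genes with such a split between the oxygen levels is not given here. From high to low the group means ran from senescent and young cells at 20% to old and young cells at 3%, and no neighbours in this order differed by the test.

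Young cells at 3% oxygen averaged -0.56 ± 0.32 and young cells at 20% 0.14 ± 0.11 (SD, n = 3 each), a log2 change in EREG of -0.70 ± 0.15 (SE, 1.62-fold lower, limma adjusted p = 0.00822). Senescent cells at 20%, at 0.20 ± 0.15 (SD, n = 3), were 1.7-fold higher than young cells at 3% (0.76 ± 0.15 SE, limma adjusted p = 0.00512). Senescent and young cells at 20% differed by 0.06 ± 0.15 (SE, limma adjusted p = 0.895), with a 95% interval from -0.26 to 0.39. Old and young cells at 3% differed by 0.37 ± 0.15 (SE, limma adjusted p = 0.307), with an interval from 0.05 to 0.70. Old cells at 3% and young cells at 20% differed by -0.32 ± 0.15 (SE, limma adjusted p = 0.238), not called.

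Old cells at 3% oxygen were lower in EREG than senescent cells at 20% by 0.39 on the log2 scale, a log2 change of -0.39 ± 0.15 (SE, limma adjusted p = 0.151), not called. Deviations of same-numbered arrays of these 2 groups correlated at 0.129, 0.519 and 0.669 over genes. In the other pairs of groups such correlations ran from -0.591 to 0.43. With the replicate number as a block in these 6 arrays alone, a fit chosen after seeing the data, EREG was called (limma adjusted p = 0.0181). That fit called 2 members in place of 1. Over the alternatives tried, the adjusted p of this difference ran from 0.00719 to 0.419.

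The difference in EREG lay on 1 of its probe sets. Probe set 205767_at stood at -0.08, -0.74 and -0.42 in old cells at 3%, at 0.65, 0.12 and 0.58 in senescent cells at 20%, at -1.09, -0.73 and -1.67 in young cells at 3%, and at 0.37, 0.30 and 0.08 in young cells at 20%. It was 2.66-fold lower in young cells at 3% than at 20% (limma adjusted p = 0.00196), and 1.82-fold lower in old than in senescent cells (limma adjusted p = 0.0433). Probe set 1569583_at stayed between -0.18 and 0.19 on all arrays and passed in no comparison.

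NRG1, the neuregulin that binds ERBB3 and ERBB4, had the smallest of the called differences. It stood at -0.14, -0.03 and -0.04 in old cells at 3% oxygen, at 0.17, 0.31 and 0.11 in senescent cells at 20%, at -0.37, 0.02 and -0.27 in young cells at 3%, and at 0.14, -0.02 and 0.19 in young cells at 20%. Senescent cells did not overlap with either group at 3%, and old cells at 3% did not overlap with young cells at 20%, while the other pairs of groups overlapped. NRG1 was 1.32-fold higher in senescent cells at 20% than in young cells at 3% (0.40 ± 0.11 SE, limma adjusted p = 0.0366).

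That call was lost without any 1 of 7 arrays: without senescent replicate 1, 2 or 3 (adjusted p = 0.0873, 0.145 and 0.0517), young 3% replicate 1 or 3 (0.143 and 0.107), young 20% replicate 1 (0.0577) or old replicate 2 (0.0519). Between young cells at 3% and 20% oxygen NRG1 differed by -0.31 ± 0.11 (SE, limma adjusted p = 0.104), and between old and senescent cells by -0.26 ± 0.11 (SE, limma adjusted p = 0.197). Senescent and young cells at 20% differed by 0.09 ± 0.11 (SE, limma adjusted p = 0.767).

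Among its 6 probe sets, 206343_s_at had the widest range: -0.55, -0.69 and -0.41 in old cells at 3%, 0.53, 0.32 and 1.16 in senescent cells at 20%, -0.26, -0.10 and -1.01 in young cells at 3%, and 0.48, 0.10 and 0.23 in young cells at 20%. All 6 arrays at 20% oxygen were above all 6 at 3% on this probe set, which was picked for its range. How many of all probe sets have such a split is not given here. Probe set 206343_s_at was 2.33-fold lower in old than in senescent cells (limma adjusted p = 0.00765). It was 2.19-fold higher in senescent cells than in young cells at 3% (limma adjusted p = 0.0128). A second probe set, 206237_s_at, was 1.69-fold higher in senescent cells than in young cells at 3% (limma adjusted p = 0.0423), and the other 4 passed in no comparison. NRG1 gives rise to many transcript forms, and which of them each probe set reads is not given in the sources used here.

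TGFA and BTC, both ligands of EGFR, were called in no comparison. On single arrays TGFA ran from -0.18 to 0.21 and BTC from -0.19 to 0.22. TGFA averaged 0.10 ± 0.10 in senescent cells and -0.07 ± 0.02 in young cells at 20% (SD, n = 3 each), and these groups did not overlap, but the difference of 0.17 ± 0.09 did not pass (SE, limma adjusted p = 0.319). Over the 6 pairwise comparisons the 95% intervals of the log2 change reached from -0.36 to 0.36 for TGFA and from -0.42 to 0.44 for BTC.

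EGFR had the smallest range of group means among the 8 members, 0.12 on the log2 scale, while ERBB3 (0.18) and ERBB2 (0.22) were close to BTC (0.18) and TGFA (0.17). EGFR, the receptor for most of these ligands, stood at 0.15, -0.04 and -0.04 in old cells at 3% oxygen, at 0.06, 0.07 and 0.02 in senescent cells at 20%, at 0.10, -0.07 and -0.02 in young cells at 3%, and at -0.03, -0.13 and -0.04 in young cells at 20%. The groups overlapped apart from senescent and young cells at 20%, whose difference of 0.12 ± 0.09 did not pass (SE, limma adjusted p = 0.55). Of all genes, 90.9% had a wider range of group means than EGFR. Its pairwise 95% intervals reached from -0.22 to 0.31.

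None of the 9 EGFR probe sets passed in any comparison; the lowest adjusted p over all probe sets was 0.122. The probe sets disagreed among themselves by more than the gene mean varied, so its small range need not hold for each of them. On 201983_s_at the senescent arrays (0.19, 0.38 and 0.32) were above all others (-0.35 to 0.18). Its change against young cells at 20% was 0.36 ± 0.14 (SE, limma adjusted p = 0.167). Probe sets 201984_s_at, 211607_x_at and 224999_at also rose against these young cells, by 0.39, 0.25 and 0.18, without overlap. Changes on 1565483_at, 1565484_x_at and 211550_at were negative (-0.14, -0.08 and -0.03), with overlap. On 1565484_x_at the values were 1.12, 0.55 and 0.18 in young cells at 3%, against 0.05, 0.02 and -0.34 in young cells at 20%, whereas on 211607_x_at they were -0.75, -0.06 and 0.02 at 3% and -0.29, -0.24 and -0.01 at 20%. Affymetrix gives the ending x to probe sets that can also bind other sequences.

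ERBB2, the partner receptor, averaged 0.14 ± 0.06 in senescent cells at 20% and -0.04 ± 0.03 in young cells at 20% (SD, n = 3 each), a difference of 0.18 ± 0.09 that did not pass (SE, limma adjusted p = 0.287). It averaged -0.07 ± 0.13 in old cells and -0.03 ± 0.10 in young cells at 3% (SD, n = 3 each). Old and senescent cells differed by -0.22 ± 0.09 (SE, limma adjusted p = 0.204). ERBB3, the neuregulin receptor, averaged 0.03 ± 0.12 in old cells at 3%, 0.04 ± 0.03 in senescent cells at 20%, 0.08 ± 0.12 in young cells at 3% and -0.10 ± 0.09 in young cells at 20% (SD, n = 3 each). The pairwise intervals reached from -0.42 to 0.39 for ERBB2 and from -0.25 to 0.39 for ERBB3.

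Read as a group, senescent against young cells at 20% oxygen had 1 of 8 members called, HBEGF, which is 12.5% of members and also 12.5% of all genes. The median log2 change was 0.10 over members and 0.04 over all genes. Of the probe sets, 2 of 34 were called, against 9.46% of all probe sets. In 5 members the 3 senescent and the 3 young arrays did not overlap, 62.5% against 29.3% of all genes; HBEGF was lower in senescent cells, and EGFR, ERBB2, ERBB3 and TGFA were higher by 0.12 to 0.18 without passing.

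Old against young cells at 3% oxygen had 0 of 8 members called by limma, against 1.74% of all genes, and 0 of 34 probe sets, against 0.941%. At an unadjusted p under 0.05 in the limma fit there were 2 members, EREG and HBEGF, of 8, against 14.2% of all genes. The median was -0.04 over members and 0.05 over all genes.

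Young cells at 3% against young cells at 20% oxygen had 2 of 8 called, HBEGF and EREG (25%, against 11.8% of all genes), and 3 of 34 probe sets, against 8.55%. Their medians were 0.04 over members and -0.03 over all genes.

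Old cells at 3% against senescent cells at 20% had HBEGF alone called (12.5%, against 11% of all genes), and 4 probe sets of HBEGF, EREG and NRG1, against 7.73% of all probe sets. Groups did not overlap in 5 members (62.5%, against 24.3% of all genes): ERBB2, EREG, HBEGF, TGFA and NRG1, each lower in old cells. The medians were -0.19 over members and -0.02 over all genes.

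In the crossed comparisons, EREG and NRG1 were called between senescent cells at 20% and young cells at 3% (25%, against 10.9% of all genes; 3 probe sets, against 7.89%), and HBEGF between old cells at 3% and young cells at 20% (12.5%, against 13.3% of all genes; 2 probe sets, against 9.7%). For the difference between the passage changes, 2 probe sets of HBEGF were called, against 4.84% of all probe sets. Groups of arrays did not overlap in 12.5% of members in old against young cells at 3%, and in 50% in young cells at 3% against 20%. The share was also 50% between senescent cells at 20% and young cells at 3%, and 37.5% between old cells at 3% and young cells at 20%. The shares over all genes are not given here for these comparisons.

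**Figure D3:**
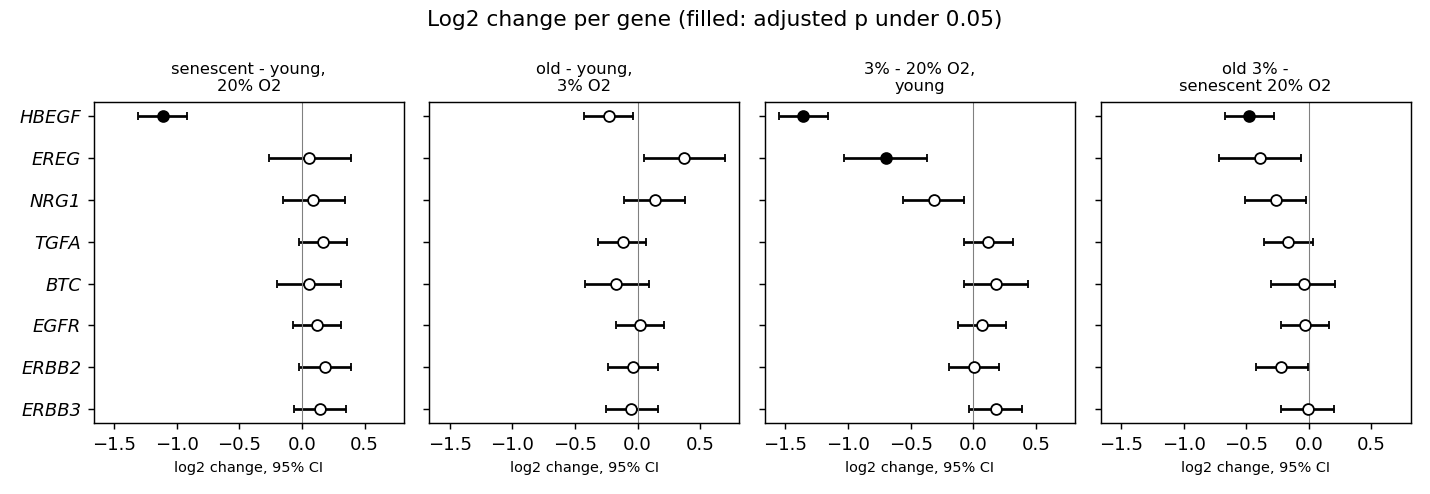
Log2 change of each gene (horizontal axis, with 95% confidence intervals from the limma fit, n = 3 arrays per group) in 4 comparisons, with genes down the vertical axis; filled points have an adjusted p under 0.05. HBEGF is filled at -1.11, -1.36 and -0.48, EREG at -0.70, and no receptor is filled; the receptor intervals include 0 except that of ERBB2 in old against senescent cells, which reaches from -0.42 to -0.01.

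Genes whose 12 values lay closest to those of the 3 most variable members were sought by the root mean square difference over the 12 arrays. Nearest to HBEGF were SPRY2, an inhibitor of receptor tyrosine kinase signalling (root mean square difference 0.13), TMEM119 (0.14) and the junction protein JAM2 (0.15). SPRY2 averaged -0.20 in old cells at 3%, 0.18 in senescent cells at 20%, -0.08 in young cells at 3% and 1.20 in young cells at 20%. Nearest to EREG were NALF1, ADTRP and the hepatocyte growth factor gene HGF, each at 0.16. HGF averaged -0.18 in old cells at 3%, 0.27 in senescent cells at 20%, -0.77 in young cells at 3% and 0.22 in young cells at 20%. Nearest to NRG1 were HIF1A and EPAS1, which encode the oxygen-regulated subunits of hypoxia-inducible factors, and the glycolysis regulator PFKFB2, each at 0.08. NRG1 varied less than HBEGF and EREG, and small differences of this kind are easier to reach where values vary less. How many genes lie as close to NRG1 was not counted.

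Among family genes that are no members, EGF was measured by 1 probe set. It stood at -0.54, 0.02 and 0.17 in old cells at 3% oxygen, at -0.02, -0.69 and -0.15 in senescent cells at 20%, at 0.31, -0.10 and -0.36 in young cells at 3%, and at 0.59, 1.02 and 0.76 in young cells at 20%. Every array of young cells at 20% was above every other array. EGF was 2.11-fold lower in senescent cells (limma adjusted p = 0.00686) and 1.79-fold lower in young cells at 3% (limma adjusted p = 0.0289), each against young cells at 20%. The difference between its passage changes was -1.01 ± 0.32 (SE, limma adjusted p = 0.0915). Of the 5 genes measured in this list, which also held ERBB4 and other neuregulins, EGF was the only 1 called in any comparison.

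Among 8 genes that take part in or restrain ligand release, 4 were called between senescent and young cells at 20% oxygen. In senescent against young cells at 20% oxygen 2 of 8 were higher and 2 lower, against 4.67% higher and 7.84% lower of all genes. RHBDF2 (iRhom2), which brings the sheddase ADAM17 to the surface, stood at 0.51, 0.82 and 0.63 in senescent cells, against 0.09, -0.20 and -0.08 in young cells at 20%, and was 1.64-fold higher (limma adjusted p = 0.0031). ADAM10, a sheddase of EGF and BTC precursors, was 1.4-fold higher (limma adjusted p = 0.027). ADAM12, a protease reported to cut the HBEGF precursor, was 1.66-fold lower (limma adjusted p = 3.69e-04), and TIMP3, an inhibitor of ADAM17, 1.47-fold lower (limma adjusted p = 0.00143). ADAM17 itself was not called (0.20 ± 0.10 SE, limma adjusted p = 0.282).

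At 3% oxygen TIMP3 stood at -0.15, -0.33 and -0.27 in old cells, against 0.51, 0.34 and 0.47 in young cells, and fell 1.62-fold (limma adjusted p = 0.00153). It was the only gene of the 8 called there, against 0.981% higher and 0.759% lower of all genes. Between the oxygen levels in young cells, ADAM12 was the only 1 of the 8 called, 1.4-fold lower at 3% (limma adjusted p = 0.00645). Of all genes, 6.84% were called lower and 4.96% higher there.

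Of 15 measured genes that relay the signal from the receptor to ERK and PI3 kinase, 2 were higher and 1 lower in senescent cells than in young cells at 20% (20%, against 12.5% of all genes). MAP2K1, the kinase that activates ERK, stood at -0.01, -0.11 and 0.00 in senescent cells, against -0.67, -0.64 and -0.65 in young cells at 20%, and was 1.53-fold higher (limma adjusted p = 2.37e-04). It was also 1.71-fold higher in young cells at 3% than at 20% (limma adjusted p = 2.63e-05), where the adaptor SHC1 was 1.39-fold lower (limma adjusted p = 0.00821). PIK3CB, a catalytic subunit of PI3 kinase, was 1.35-fold higher (limma adjusted p = 0.0032) and PIK3R1, its regulatory subunit, 1.71-fold lower (limma adjusted p = 0.00136) in senescent than in young cells at 20%. In old against young cells at 3% limma called 0 of the 15, against 1.74% of all genes, with 1 at an unadjusted p under 0.05, against 14.2% of all genes.

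Inhibitors of receptor and ERK signalling had their called differences downward in the comparisons with young cells at 20%. In senescent against young cells at 20%, 5 of 18 were lower and 0 higher, against 7.84% lower and 4.67% higher of all genes. Their median log2 change was -0.11, against 0.04 over all genes. SPRY4 was 2.64-fold lower (limma adjusted p = 1.98e-04), SPRY2 2.02-fold (limma adjusted p = 2.36e-05), the ERK phosphatase DUSP6 1.48-fold (limma adjusted p = 0.00142) and SOCS4 1.41-fold (limma adjusted p = 0.00495).

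In young cells at 3% against 20% oxygen, 7 of the 18 inhibitors were lower and 0 higher, against 6.84% lower and 4.96% higher of all genes. DUSP6 averaged -0.84 ± 0.14 in young cells at 3%, against 0.95 ± 0.04 in young cells at 20% (SD, n = 3 each), and was 3.47-fold lower (limma adjusted p = 1.04e-07). SPRY2 was 2.43-fold lower, SPRY4 2.14-fold and DUSP5 1.84-fold. ERRFI1, which binds and blocks the EGFR kinase, was called in no comparison.

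DUSP5, an ERK phosphatase of the nucleus, had its highest mean in senescent cells at 20% rather than in young cells at 20%. It stood at -1.18, -1.25 and -1.39 in old cells at 3%, at 0.59, 0.51 and 0.56 in senescent cells at 20%, at -0.38, -0.54 and -0.48 in young cells at 3%, and at 0.38, 0.43 and 0.41 in young cells at 20%. No 2 groups overlapped, and old cells were the lowest. It was 1.76-fold lower in old than in young cells at 3% (limma adjusted p = 2.54e-04) and 3.55-fold lower in old than in senescent cells (limma adjusted p = 3.16e-08).

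Of 13 measured ERK target genes, 6 were lower and 2 higher in senescent than in young cells at 20%, against 7.84% lower and 4.67% higher of all genes. In young cells at 3% against 20%, 6 were lower and 0 higher, against 6.84% lower and 4.96% higher of all genes. The median log2 change was -0.29 and -0.41, against 0.04 and -0.03 over all genes. The immediate-early factor FOS was 7.87-fold lower in senescent cells (limma adjusted p = 1.11e-06) and 6.68-fold lower in young cells at 3% (limma adjusted p = 1.37e-06). EGR3, of the same class, was 8.77-fold and 4.28-fold lower (limma adjusted p = 3.17e-06 and 6.35e-05). Cyclin D1 (CCND1) was 1.52-fold higher in senescent than in young cells at 20% (limma adjusted p = 0.0214), and so was ETV5, 1.39-fold (limma adjusted p = 0.0135).

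With passage at 3% oxygen, 3 of the 13 targets were lower and 1 higher, against 0.759% lower and 0.981% higher of all genes. PHLDA1 stood at 0.55, 0.50 and 0.40 in old cells, against -0.28, -0.53 and -0.26 in young cells at 3%, and rose 1.79-fold (limma adjusted p = 6.69e-04), while FOSL1 fell 1.57-fold (limma adjusted p = 0.0274). The passage changes differed between the oxygen levels in 5 targets, 1 higher and 4 lower, and in 5 inhibitors, 1 higher and 4 lower, against 2.06% higher and 4.37% lower of all genes. For FOS that difference was -3.73 ± 0.28 (SE, limma adjusted p = 7.21e-06), for PHLDA1 -1.69 ± 0.14 (limma adjusted p = 1.75e-05), for SPRY4 -1.37 ± 0.25 (limma adjusted p = 0.00546) and for DUSP5 0.95 ± 0.12 (limma adjusted p = 4.27e-04).

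**Figure D4:**
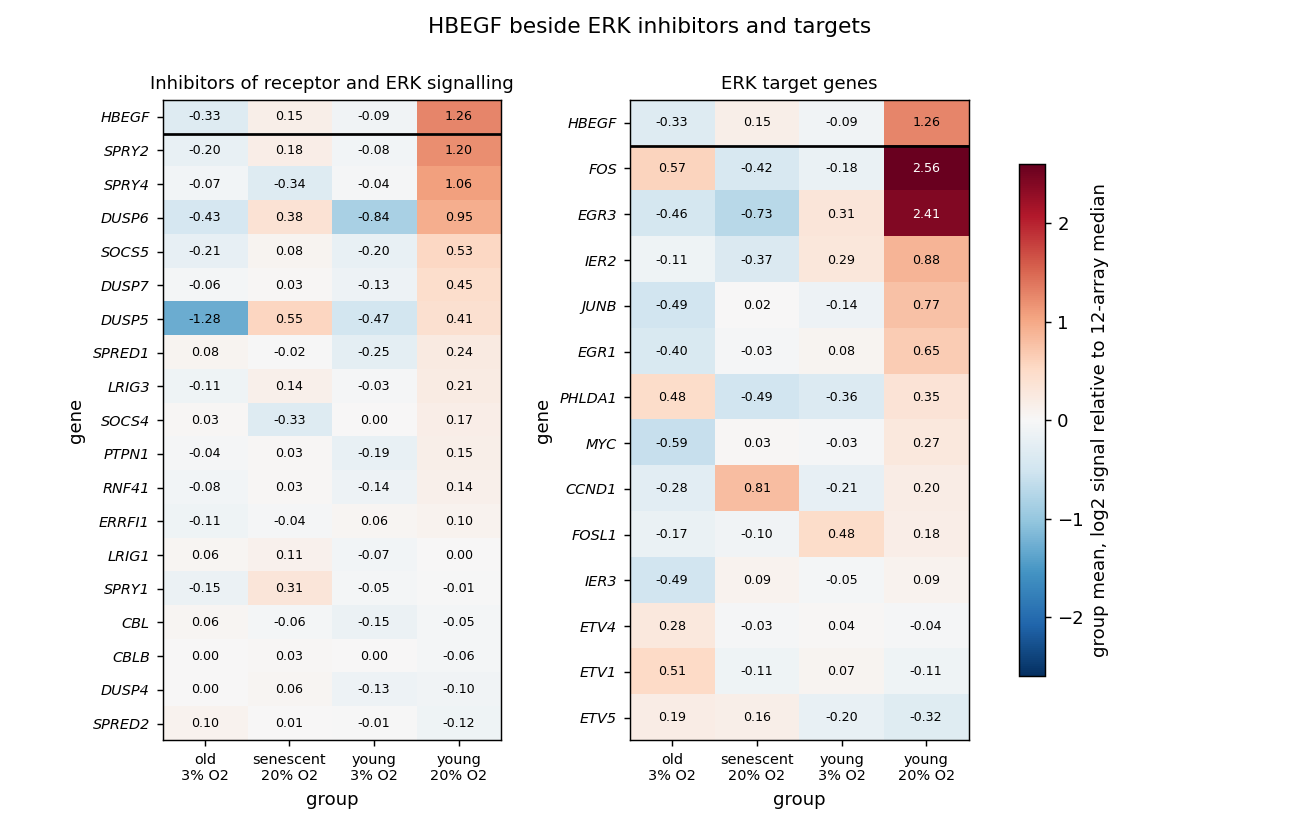
Group means (colour and printed value, log2 signal relative to the median of the 12 arrays, n = 3) of HBEGF above the line and of the 18 measured inhibitors and 13 measured ERK targets below it (rows), in the 4 groups (columns). HBEGF, SPRY2, SPRY4, FOS and EGR3 have their highest mean in young cells at 20% oxygen, DUSP5 and CCND1 in senescent cells.

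Of 14 epithelial markers, limma called KRT19 alone in young cells at 3% against 20% (7.14%, against 11.8% of all genes). It was 1.89-fold lower (limma adjusted p = 0.00498), in the same direction as EREG. In senescent against young cells at 20% limma called 0 of the 14, against 12.5% of all genes. There, 0 had an unadjusted p under 0.05 in the limma fit, against 21.7% of all genes. KRT19 was also 1.86-fold higher in senescent cells at 20% than in young cells at 3% (limma adjusted p = 0.00646), where EREG and NRG1 were called. KRT18 was 1.69-fold lower in old cells at 3% than in young cells at 20% (limma adjusted p = 0.00397), where HBEGF was called. The part of these markers in the results was not tested. The mean of the epithelial list ran from -0.13 to 0.06 in old cells at 3%, from 0.00 to 0.16 in senescent cells, from -0.21 to -0.01 in young cells at 3% and from -0.07 to 0.06 in young cells at 20%. The 5 endothelial and 3 measured immune markers were called in no comparison, with at most 1 of each list at an unadjusted p under 0.05. In the pairwise comparisons 1.74% to 13.3% of all genes were called, and 14.2% to 23.9% had an unadjusted p under 0.05 in the limma fit. With so few markers, the absence of calls does not set them apart from other genes. Of 12 fibroblast markers, 1 was higher and 5 lower in senescent cells than in young cells at 20%, against 4.67% higher and 7.84% lower of all genes, and the list mean ran from -0.03 to 0.00 in senescent cells and from 0.24 to 0.31 in young cells at 20%. LUM was 2.69-fold, DCN 2.09-fold, PDGFRA 1.7-fold, VIM 1.54-fold and COL3A1 1.47-fold lower, and FAP 1.31-fold higher, while the other 6 did not pass. In young cells at 3% against 20%, 4 of the 12 were lower and 0 higher, against 6.84% lower and 4.96% higher of all genes. Among the 4 were LUM (2.83-fold) and DCN (2.62-fold), and the list mean at 3% ran from -0.12 to -0.08. HBEGF was lower in both comparisons, and the part of these markers in that result was not tested. In bulk samples fewer cells of a type and less RNA per cell cannot be told apart. The difference between the 3' and 5' control probe sets of ACTB lay between -0.22 and 0.35 on 11 arrays and at 0.71 on replicate 2 of the young cells at 3%. As each probe set is centred, this difference compares RNA quality between these arrays only and gives no absolute measure of it.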

How the data were processed

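Total RNA of 12 IMR-90 samples was biotin-labelled and hybridised to Affymetrix arrays, per the labels' protocols. The deposited values were made with RMA, per the submitters' processing notes, and are read here as log2; the base of the logarithm is not given in the sources used here. Every probe set has a median of 0 over the 12 arrays within 1e-06, so levels and a filter on dim probe sets were not available. Of 54675 probe sets, 41091 name 1 gene, 1801 several and 11721 none, and 62 are controls. Of the first, 41037 were matched to current symbols by Entrez identifier and the rest kept the symbol given for the array. All 41091 were averaged per gene. Group means of the 4 groups were fitted with limma 3.58.1 (lmFit and eBayes) in R 4.3.3, for genes and again for all probe sets but controls. Tests were two-sided, with Benjamini-Hochberg adjustment within a comparison; "limma adjusted p" names these values. Values after ± are SD or SE as stated. Between senescent and old arrays, same-numbered deviations from the group means correlated at 0.129, 0.519 and 0.669 over genes, which is the only ground for a pairing there. The fit was also run on simulated data with independent noise per gene and array. Such data lack the correlations between arrays given above, so that run does not vouch for the fit on these arrays. All members were tested in every comparison, and the called members were named in each, the others only in some. Up to 4 called genes with the largest change per pathway list were named in the comparisons given, and the 3 nearest genes for 3 members. CCND1, ETV5, ERRFI1, ADAM17 and the markers were named beside that rule. Members and lists were chosen with earlier results of these data known. Of 105 genes in the pathway and marker lists, 93 were measured. Promoters are from RefSeq.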

Additional observations from a re-analysis of the deposited data

Results flagged for a closer look

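The passage change of HBEGF differed between the oxygen levels by a test of the difference itself: senescent minus young cells at 20% oxygen, less old minus young cells at 3%, gave -0.88 ± 0.13 on the log2 scale (SE, n = 3 arrays per group, limma adjusted p = 0.00102). The 3 young arrays at 20% were above all 9 other arrays. No group has the 4 arrays or more that the search for outlying arrays needs.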

How the results depend on the processing

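Of the calls of single members, those of HBEGF (4 pairwise comparisons and the difference between passage changes) and EREG (young cells at 3% against 20%, senescent cells at 20% against young cells at 3%) kept their direction and their side of the threshold under every alternative tried. The call of NRG1 between senescent cells at 20% and young cells at 3% was lost under 10 of 21 alternatives. The number of members called in old cells at 3% against senescent cells was 3 with no collapse of probe sets and 3 with the most variable probe set per gene, and 2 with array quality weights and with a replicate block in these 2 groups alone, which, like the RNA quality covariate, was chosen after seeing the data. Between senescent cells at 20% and young cells at 3% it was 1 in place of 2 with the groups compared alone, with the replicate block over all 12 arrays, without flat genes (which leaves out NRG1) and at an adjusted p under 0.01, and it ran from 1 to 2 when each array was left out. Between old cells at 3% and young cells at 20% it was 2 with the most variable probe set and 2 with array quality weights. Leaving out arrays gave 2 to 3 called members between young cells at 3% and 20%. The replicate block changed no other count of members. The cause of these differences was not tested. Centred values limit all results to differences within a probe set.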
